A study of Mus musculus with 12 samples.

Results

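The genes described here write, erase and read DNA methylation, and they were followed in the neocortex of Chd8+/+ and Chd8+/- mice at embryonic day 12.5 (E12.5) and postnatal day 5 (P5). They are 9 genes chosen by symbol: the methyltransferases Dnmt1, Dnmt3a and Dnmt3b, the 5-methylcytosine oxidases Tet1, Tet2 and Tet3, the maintenance factor Uhrf1, and the methyl-CpG binding proteins Mbd1 and Mbd2. All 9 were found among the 46603 gene identifiers of the count tables, each under a single identifier, and all 9 passed the filter on low counts in every comparison. RNA-seq was performed on microdissected cortex of C57Bl/6J background, with 3 libraries per genotype at each stage and 12 in all. Chd8 encodes a chromatin remodeling factor of the CHD family. Chd8+/- mice carry 1 null allele, made by deleting exon 3 with β-actinCre, which acts in the germline and throughout the body, after which Cre was bred out. Both genotypes came from crosses of Chd8+/- with C57BL/6J mice, so that every group shares the strain and no group carries Cre. Both hemispheres were taken at the embryonic stage but only 1 hemisphere at P5, and each stage has its own count table. Stage can therefore not be told apart from dissection, count table and any batch that went with them. The labels do not state whether each library came from a separate animal, and p-values then measure only the spread between these libraries. Gene counts summed to 38774591 in the shallowest library and to 54695236 in the deepest.

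In vertebrates, DNA methylation lies mainly on cytosines of CG dinucleotides. Dnmt3a and Dnmt3b place it on unmethylated DNA, and Dnmt1 copies it onto the new strand after replication, brought to hemimethylated sites by Uhrf1. The Tet enzymes oxidize 5-methylcytosine, and the oxidized bases are diluted by replication or cut out by thymine DNA glycosylase and base excision repair. Mbd1 and Mbd2 bind methylated CG and bring histone deacetylase and methyltransferase complexes. In the brain, Dnmt1 and Uhrf1 are known from dividing progenitors, and Dnmt3a is known for laying down methylation in postmitotic neurons after birth, part of it outside CG. RNA levels were measured here, and neither DNA methylation nor protein was.

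The targeted gene was examined first. Chd8 was at 234, 229 and 235 CPM in the E12.5 Chd8+/+ libraries and at 162, 167 and 161 CPM in the E12.5 Chd8+/- libraries. At P5 it was at 151, 151 and 145 CPM in Chd8+/+ and at 95.7, 98.6 and 95.01 CPM in Chd8+/-. Every Chd8+/- library lay below every Chd8+/+ library of its stage, and by the edgeR fit the level was 29.7% lower at E12.5 and 34.5% lower at P5. CPM here are counts divided by library size in edgeR, scaled by the trimmed mean of M values (TMM) over all 12 libraries. The labelled tissue was checked by its markers. The 8 markers of cortical excitatory neurons, among them Tbr1 and Neurod6, summed to between 1462 and 1844 CPM at E12.5 and to between 3304 and 3592 CPM at P5, and none of them was at 0 in any group.

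The promoters of 4 of these genes are shown because their genes took different courses between the stages, described below. Uhrf1 fell most from E12.5 to P5, Dnmt3b and Dnmt1 fell less, and Dnmt3a did not fall. RefSeq promoters (GRCm38.p6, 250 bases before to 50 after a start) were available for 7 of the 9 genes, 12 in number. Sequences are printed 5′ to 3′ on the gene's strand, and capitals mark a match to an E2F motif, searched as TTTCCCGC, TTTGGCGC, TTTCGCGC and TTTGCCGC on both strands. E2F factors are regulators of genes of DNA replication. RefSeq gives 2 Uhrf1, 3 Dnmt1 and 3 Dnmt3a promoters. For Uhrf1 and Dnmt1 the window printed is the only one of that gene with a match, chosen after the matches were seen, and for Dnmt3a it is the first listed. The Uhrf1 window lies at chr17:56304063-56304362 on the plus strand, the Dnmt1 window at chr9:20952574-20952873 on the minus strand, the Dnmt3b promoter at chr2:153649199-153649498 on the plus strand and the Dnmt3a window at chr12:3806730-3807029 on the plus strand.
Uhrf1: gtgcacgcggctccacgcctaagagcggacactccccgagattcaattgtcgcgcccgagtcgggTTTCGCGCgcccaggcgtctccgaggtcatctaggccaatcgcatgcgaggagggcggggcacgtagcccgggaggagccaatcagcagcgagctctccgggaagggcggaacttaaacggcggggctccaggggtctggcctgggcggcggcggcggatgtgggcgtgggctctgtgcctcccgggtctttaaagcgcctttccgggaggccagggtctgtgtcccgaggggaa
Dnmt1: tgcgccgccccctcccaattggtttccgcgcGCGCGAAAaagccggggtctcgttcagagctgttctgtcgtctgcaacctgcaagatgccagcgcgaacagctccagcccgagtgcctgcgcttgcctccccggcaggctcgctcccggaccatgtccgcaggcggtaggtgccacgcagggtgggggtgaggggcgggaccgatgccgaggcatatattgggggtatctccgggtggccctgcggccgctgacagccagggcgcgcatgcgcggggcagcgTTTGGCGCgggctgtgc
Dnmt3b: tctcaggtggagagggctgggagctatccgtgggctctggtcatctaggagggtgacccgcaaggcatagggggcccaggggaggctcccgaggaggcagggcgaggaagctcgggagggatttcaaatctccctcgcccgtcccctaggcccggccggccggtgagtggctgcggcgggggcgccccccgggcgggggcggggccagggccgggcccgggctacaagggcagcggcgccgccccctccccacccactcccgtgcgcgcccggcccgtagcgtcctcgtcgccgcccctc
Dnmt3a: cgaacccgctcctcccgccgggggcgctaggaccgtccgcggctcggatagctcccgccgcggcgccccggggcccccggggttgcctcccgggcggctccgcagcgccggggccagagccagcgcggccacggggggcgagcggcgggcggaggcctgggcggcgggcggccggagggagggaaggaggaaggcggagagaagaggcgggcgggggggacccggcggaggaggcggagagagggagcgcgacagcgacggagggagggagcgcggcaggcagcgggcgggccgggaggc

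The Uhrf1 window holds 1 match and the Dnmt1 window holds 2 matches. These were the only matches among the 12 promoters of the 7 genes, whereas 744 of the 32851 promoters compared (2.26%) hold at least 1. Every motif searched holds a CG, and the share of 2.26% is not matched for the number of CG. CG dinucleotides number 33 in the Uhrf1 window, 33 in the Dnmt1 window, 30 in the Dnmt3b window and 46 in the Dnmt3a window. Over all promoters the median is 7 and the 90th percentile 31, and 26.5% hold at least 20. Of the other promoters, that of Tet2 holds 57 CG, that of Tet3 holds 22 and that of Tet1 holds 17. The other Dnmt1 promoters hold 2 and 12 CG, the other Dnmt3a promoters hold 47 and 18, and the other Uhrf1 promoter holds 12. These counts of letters describe the windows and say nothing of binding or of methylation there.

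In Chd8+/+ cortex, 8 of the 9 genes were lower at P5 than at E12.5, and Dnmt3a was the exception. Uhrf1 fell most, by 95.8%, followed by Dnmt3b, which fell by 83.1%, and Dnmt1, which fell by 65.0%. The test was edgeR's quasi-likelihood test with Benjamini-Hochberg adjustment over all genes and a threshold of 0.05. Among all 19039 genes tested, 42.3% were called lower and 41.7% were called higher at P5. The median log2 fold change of the 9 genes was -0.95, against -0.02 over all genes tested. In Chd8+/- libraries, which share no library with that comparison, the same 8 genes were called lower, and Dnmt3a was called higher. There, 41.5% of the 18894 genes tested were called lower and 41.7% higher, and the median was -0.94 for the 9 genes and 0.00 over all genes. In bulk tissue, fewer cells of a type and less RNA per cell cannot be told apart.

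**Figure D1:**
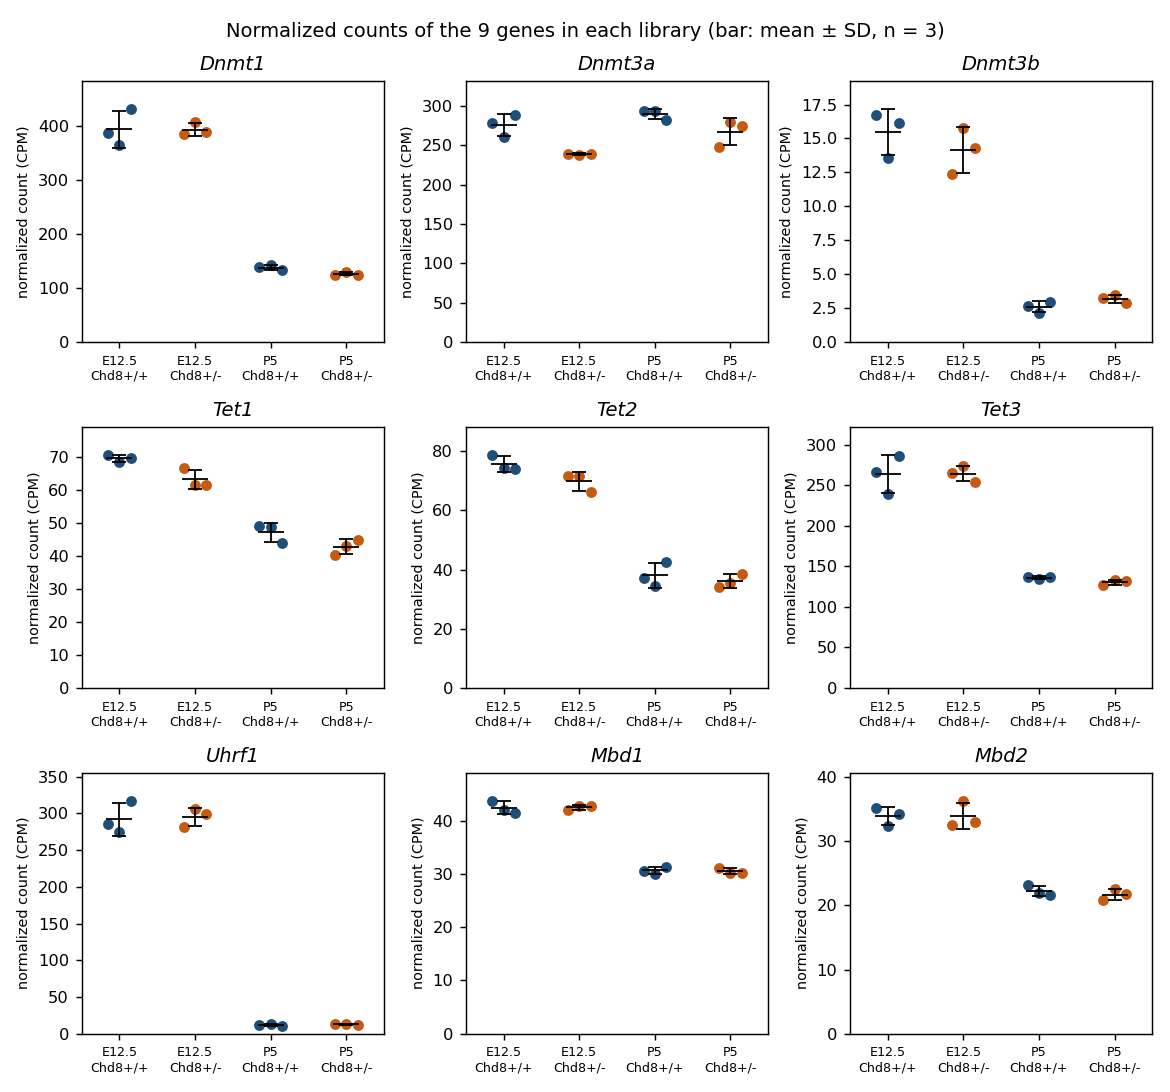
Normalized counts (CPM, y axis from 0) of the 9 genes in each library, with Chd8+/+ in blue and Chd8+/- in orange. Bars give the mean ± SD (n = 3). The stages do not overlap for any gene but Dnmt3a, whose E12.5 Chd8+/- libraries, at 237 to 239 CPM, lie below all others.

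Among the writers, Dnmt1 (ENSMUSG00000004099, chr9:20907206-20959888, minus strand, GRCm38) maintains methylation after replication. It was at 387, 364 and 431 CPM in the E12.5 Chd8+/+ libraries and at 138, 142 and 133 CPM at P5. In Chd8+/- cortex it was at 385, 408 and 388 CPM at E12.5 and at 125, 129.6 and 124 CPM at P5. The stages lay far apart in both genotypes. The log2 fold change from E12.5 to P5 was -1.51 ± 0.07 (SE) in Chd8+/+ (edgeR adjusted p = 5.06e-10) and -1.63 ± 0.04 in Chd8+/- (edgeR adjusted p = 1.34e-09).

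Dnmt3a (ENSMUSG00000020661, chr12:3806007-3914443, plus strand) methylates DNA de novo. It was at 278.5, 260.4 and 289 CPM in the E12.5 Chd8+/+ libraries and at 294, 293 and 283 CPM in the P5 Chd8+/+ libraries. These ranges overlapped, and the log2 fold change of 0.07 ± 0.06 (SE) did not pass the test (edgeR adjusted p = 0.253, 95% interval -0.05 to 0.19). It was 0.035 without replicate 2 and 0.11 without replicate 3 of E12.5 Chd8+/+, the lowest and highest values without single libraries. In the Chd8+/- libraries it stood at 239, 237 and 239 CPM at E12.5 and at 248, 279.5 and 274.2 CPM at P5. There the stages did not overlap, and the log2 fold change of 0.18 ± 0.05 was called (edgeR adjusted p = 0.0109). The difference between the 2 stage effects was 0.09 ± 0.07 on the log2 scale and did not pass the interaction test (edgeR adjusted p = 0.691). It was between 0.062 and 0.15 when single libraries were left out, and 0.17 with offsets that remove a trend with gene length (edgeR adjusted p = 0.471). The Dnmt3a exons share 133 bases, or 0.799% of their merged length, with Dnmt3aos on the opposite strand. Gene counts do not separate the transcripts that start at different Dnmt3a promoters.

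Dnmt3b (ENSMUSG00000027478, chr2:153649450-153687730, plus strand), the other de novo enzyme, was the least abundant of the 3. It was at 16.8, 13.5 and 16.1 CPM in the E12.5 Chd8+/+ libraries and at 2.68, 2.18 and 2.96 CPM at P5, where 95 to 144 reads were counted per library. Its Chd8+/- values were 12.4, 15.7 and 14.3 CPM at E12.5 and 3.26, 3.45 and 2.89 CPM at P5. All E12.5 values lay above all P5 values. From E12.5 to P5 it changed on the log2 scale by -2.57 ± 0.12 (SE) in Chd8+/+ (edgeR adjusted p = 9.90e-10) and -2.13 ± 0.12 in Chd8+/- (edgeR adjusted p = 1.27e-07).

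Uhrf1 (ENSMUSG00000001228, chr17:56303321-56323486, plus strand) recognizes hemimethylated CG and recruits Dnmt1. It was at 285, 274.2 and 317 CPM in the E12.5 Chd8+/+ libraries and at 12.3, 13.9 and 10.9 CPM at P5. In Chd8+/- cortex it was at 281, 305 and 299 CPM at E12.5 and at 12.7, 13.3 and 12.2 CPM at P5. By the edgeR fit, the level at E12.5 was 23.7-fold that at P5 in Chd8+/+ and 23.0-fold in Chd8+/-. On the log2 scale it changed by -4.57 ± 0.08 (SE) in Chd8+/+ (edgeR adjusted p = 2.57e-13) and -4.52 ± 0.05 in Chd8+/- (edgeR adjusted p = 4.18e-11). Per kilobase of exon, Uhrf1 counts were 1.08 to 1.14 times the Dnmt1 counts of the same library at E12.5, and 0.121 to 0.151 times at P5. Every P5 library thus had a lower ratio than every E12.5 library.

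The erasers fell by smaller factors. Tet3 (ENSMUSG00000034832, chr6:83362373-83459084, minus strand) was at 266, 239 and 286 CPM in the E12.5 Chd8+/+ libraries and at 137, 135 and 137 CPM at P5. In the Chd8+/- libraries it stood at 266, 273.4 and 254 CPM at E12.5 and at 127, 133 and 131 CPM at P5. The stages did not overlap. The log2 fold change was -0.95 ± 0.06 (SE) in Chd8+/+ (edgeR adjusted p = 1.94e-08) and -1.01 ± 0.04 in Chd8+/- (edgeR adjusted p = 1.93e-08).

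Tet2 (ENSMUSG00000040943, chr3:133463679-133545139, minus strand), a Tet enzyme without the CXXC domain that binds unmethylated CG, was at 78.8, 74.2 and 74.1 CPM in the E12.5 Chd8+/+ libraries and at 37.2, 34.3 and 42.5 CPM at P5. Its Chd8+/- values were 71.5, 71.6 and 66.2 CPM at E12.5 and 34.2, 35.6 and 38.6 CPM at P5. Its fold changes were close to those of Tet3, at -0.99 ± 0.07 (SE) on the log2 scale in Chd8+/+ and -0.94 ± 0.06 in Chd8+/- (edgeR adjusted p = 7.62e-08 and 3.33e-07). Tet2 exons share 43 bases (0.255%) with Gm42567 on the opposite strand.

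Tet1 (ENSMUSG00000047146, chr10:62804570-62899118, minus strand), which has a CXXC domain, fell least of the erasers. It was at 70.5, 68.4 and 69.8 CPM in the E12.5 Chd8+/+ libraries and at 49.0, 48.7 and 43.8 CPM at P5. In Chd8+/- cortex it was at 66.6, 61.6 and 61.6 CPM at E12.5 and at 40.4, 42.9 and 44.9 CPM at P5. No P5 library reached the lowest E12.5 library. From E12.5 to P5 it changed on the log2 scale by -0.56 ± 0.06 (SE) in Chd8+/+ (edgeR adjusted p = 1.16e-06) and -0.55 ± 0.06 in Chd8+/- (edgeR adjusted p = 1.54e-05).

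The readers also fell by small factors. Mbd1 (ENSMUSG00000024561, chr18:74268272-74282685, plus strand), which binds methylated CG and partners Setdb1 through Atf7ip, was at 43.7, 42.0 and 41.5 CPM in the E12.5 Chd8+/+ libraries and at 30.5, 30.04 and 31.4 CPM at P5. In the Chd8+/- libraries it stood at 42.0, 42.7 and 42.7 CPM at E12.5 and at 31.2, 30.2 and 30.2 CPM at P5. The stages were separated by more than the spread within any group. On the log2 scale it changed by -0.47 ± 0.06 (SE) in Chd8+/+ (edgeR adjusted p = 6.56e-06) and -0.46 ± 0.05 in Chd8+/- (edgeR adjusted p = 1.54e-05).

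Mbd2 (ENSMUSG00000024513, chr18:70568189-70626131, plus strand), which brings the NuRD complex to methylated DNA, was at 35.2, 32.4 and 34.1 CPM in the E12.5 Chd8+/+ libraries and at 23.1, 21.9 and 21.6 CPM at P5. Its Chd8+/- values were 32.6, 36.3 and 32.9 CPM at E12.5 and 20.8, 22.5 and 21.7 CPM at P5. No library of a stage reached the range of the other stage. The log2 fold change was -0.61 ± 0.06 (SE) in Chd8+/+ (edgeR adjusted p = 1.07e-06) and -0.63 ± 0.06 in Chd8+/- (edgeR adjusted p = 7.14e-06). Apart from Dnmt3a and Tet2, none of the 9 genes shares exon bases with another annotated gene.

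Levels were compared between genes per kilobase of merged exon, a length that includes exons that may be rarely used. In E12.5 Chd8+/+ cortex, Uhrf1 stood highest at 68.6 ± 5.26 CPM per kb (SD, n = 3), followed by Dnmt1 at 62.5 ± 5.44, and their ranges overlapped. Tet3 came next at 21.99 ± 1.98, then Dnmt3a at 16.6 ± 0.862 and Mbd1 at 15.8 ± 0.439, whose ranges overlapped with each other. Mbd2 stood at 10.5 ± 0.445. Tet1 at 4.73 ± 0.0730 and Tet2 at 4.49 ± 0.158 overlapped, and Dnmt3b was lowest at 3.03 ± 0.333. Uhrf1 thus ranked above 95.7% of the genes with a mean of at least 1 CPM in that group.

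At P5 the order in Chd8+/+ cortex had changed. Dnmt1 was now highest at 21.9 ± 0.731 CPM per kb (SD, n = 3) and Dnmt3a was next at 17.4 ± 0.374, without overlap. This order holds per length, with merged exons of 6304 bases for Dnmt1 and 16642 for Dnmt3a, whereas in CPM the P5 Chd8+/+ mean was 138 for Dnmt1 and 289.8 for Dnmt3a. Mbd1 at 11.4 ± 0.247 and Tet3 at 11.3 ± 0.115 overlapped, and Mbd2 stood at 6.92 ± 0.244. Tet1 at 3.21 ± 0.198 and Uhrf1 at 2.90 ± 0.354 overlapped, Tet2 was at 2.25 ± 0.249, and Dnmt3b was lowest at 0.511 ± 0.0769. Uhrf1 had moved from rank 1 to rank 7 and Dnmt3a from rank 4 to rank 2. In Chd8+/- cortex the order differed from Chd8+/+ in 1 pair at each stage. At E12.5, Mbd1 at 15.8 ± 0.149 stood above Dnmt3a at 14.3 ± 0.0644 without overlap, and at P5, Uhrf1 at 2.99 ± 0.126 and Tet1 at 2.90 ± 0.154 overlapped in the reverse order.

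**Figure D2:**
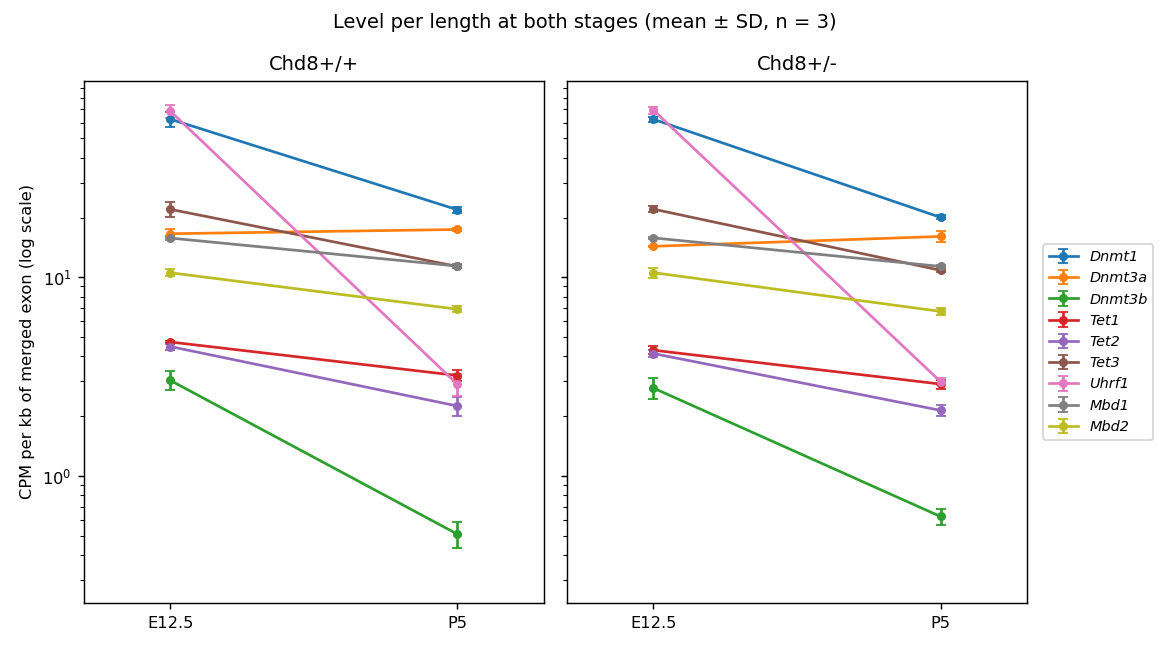
Mean level per kilobase of merged exon (CPM per kb, log scale) at E12.5 and P5 in Chd8+/+ (left) and Chd8+/- (right), with the SD of 3 libraries. Lines join the means of 2 separate sets of libraries. Uhrf1 drops through the order from 68.6 to 2.90 CPM per kb in Chd8+/+, and the Dnmt3a line is nearly flat.

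The make-up of each enzyme family was followed as the share of each gene in its family, from counts per kilobase within a library, which does not depend on library scaling. Across the 6 libraries of each stage, the Dnmt1 share fell from 77.3% ± 1.42 (SD) at E12.5 to 54.8% ± 0.901 at P5, and the Dnmt3a share rose from 19.1% ± 1.31 to 43.7% ± 0.898. The Dnmt3b share fell from 3.59% ± 0.302 to 1.496% ± 0.285. The stages did not overlap for any of these 3 shares, and each difference had a two-sided exact permutation p of 0.00216, the smallest that 6 against 6 libraries can give (0.00325 after Benjamini-Hochberg adjustment over 6 shares). The order within the family depends on the division by length. By counts alone the Dnmt1 share went from 59.2% to 32.0% and the Dnmt3a share from 38.6% to 67.3%, so that Dnmt3a held the larger share at P5. Summed over the family, the Dnmt level per kilobase was 82.1 ± 6.48 CPM per kb at E12.5 and 39.8 ± 1.00 at P5 in Chd8+/+ (SD, n = 3). The stage effect on the Dnmt3a level itself did not pass the test in Chd8+/+, as given above.

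The Tet family changed less in make-up. Tet3 held 71.4% ± 1.60 of the Tet level at E12.5 and 67.9% ± 0.733 at P5 (SD, 6 libraries each, exact permutation p = 0.00433, adjusted 0.00519). Tet1 rose from 14.7% ± 0.886 to 18.7% ± 0.987 (exact permutation p = 0.00216, adjusted 0.00325). Tet2 was at 13.99% ± 0.779 and 13.4% ± 0.912, a difference of -0.56 percentage points that did not pass the test (exact permutation p = 0.273, adjusted 0.273), and it ran from -0.85 to -0.32 points when single libraries were left out. The summed Tet level was 31.2 ± 2.05 CPM per kb at E12.5 and 16.8 ± 0.213 at P5 in Chd8+/+ (n = 3).

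Between genotypes within a stage, 3 against 3 libraries cannot go below an exact p of 0.10 for these shares. At E12.5 the Dnmt3a share was 20.2% ± 0.616 in Chd8+/+ and 18.03% ± 0.560 in Chd8+/- (SD, n = 3), and the genotypes did not overlap (exact permutation p = 0.10). The Dnmt1 share was 76.1% ± 0.787 and 78.5% ± 0.337 in the same libraries, also without overlap. At P5 the Dnmt3a share was 43.7% ± 0.346 and 43.7% ± 1.38, and the ranges overlapped. The P5 Dnmt3b share was 1.29% ± 0.223 in Chd8+/+ and 1.71% ± 0.147 in Chd8+/-, without overlap (exact permutation p = 0.10). None of the 3 Tet shares separated the genotypes at either stage.

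**Figure D3:**
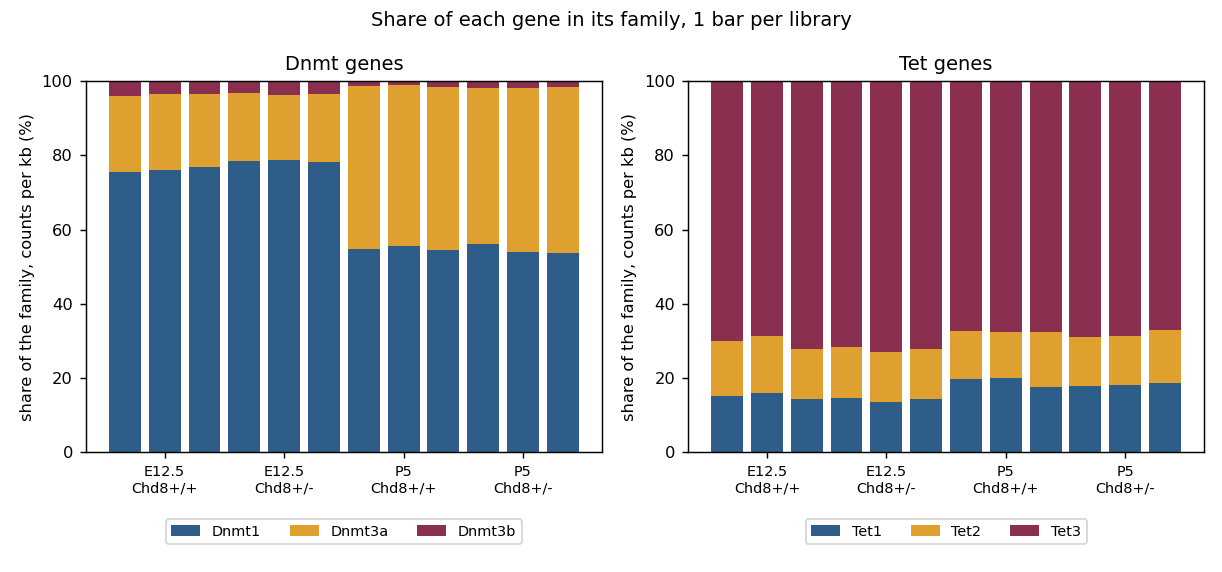
Share of each gene in its family (%, counts per kilobase of merged exon), with 1 stacked bar per library. The Dnmt3a part of the Dnmt bars grows from 19.1% at E12.5 to 43.7% at P5 on average, while the Tet bars keep a Tet3 part between 67.2% and 73.0% in all 12 libraries.

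Between the genotypes, none of the 9 genes was called at either stage by edgeR's quasi-likelihood test, and none by DESeq2, which gave Dnmt3b no adjusted p at P5. Over all genes, edgeR called 1 of 18081 (0.00553%) at E12.5 and 1 of 18666 (0.00536%) at P5, in both cases Chd8. DESeq2 called 3 of 29352 genes (0.0102%) at E12.5 and 651 of 12467 (5.22%) at P5. Dnmt3a had the smallest p of the 9 at E12.5. Its Chd8+/- libraries, at 237 to 239 CPM, all lay below its Chd8+/+ libraries, at 260.4 to 289 CPM. The log2 fold change of Chd8+/- over Chd8+/+ was -0.21 ± 0.05 (SE), or 13.6% lower, with an edgeR adjusted p of 0.924 and a 95% interval of -0.32 to -0.10. At P5 the 3 Chd8+/- libraries, at 248 to 279.5 CPM, again lay below the 3 Chd8+/+ libraries, at 283 to 294 CPM. The P5 log2 fold change was -0.10 ± 0.05 (edgeR adjusted p = 0.295). With offsets that remove a trend with gene length it was -0.013 (edgeR adjusted p = 0.897), and without replicate 1 of P5 Chd8+/- it was -0.05 (edgeR adjusted p = 0.592).

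At E12.5, 3 of the 9 genes had an unadjusted edgeR p under 0.05, against 5.15% of all genes tested, and the same 3 had genotypes that did not overlap, against 11.4% of all genes. Besides Dnmt3a these were Tet1 and Tet2. Tet1 was at 68.4 to 70.5 CPM in Chd8+/+ and at 61.6 to 66.6 CPM in Chd8+/-, and its log2 fold change was -0.14 ± 0.05 (SE, edgeR adjusted p = 0.942). Tet2 was at 74.1 to 78.8 CPM and at 66.2 to 71.6 CPM, with a log2 fold change of -0.12 ± 0.05 (edgeR adjusted p = 0.942). For both, every Chd8+/- library lay below every Chd8+/+ library, by margins that did not pass adjustment over all genes. Dnmt3b had a log2 fold change of -0.13 ± 0.11, with overlapping genotypes, and between -0.21 and -0.043 when single libraries were left out. The log2 fold changes of the other 5 genes were between -0.0024 and 0.014. The 95% intervals of Dnmt1, Tet3, Uhrf1, Mbd1 and Mbd2 all lay between -0.15 and 0.16.

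At P5, 2 of the 9 genes had an unadjusted edgeR p under 0.05, against 17.8% of all genes tested. Dnmt1 was at 133 to 142 CPM in Chd8+/+ and at 124 to 129.6 CPM in Chd8+/-, without overlap. Its log2 fold change was -0.11 ± 0.04 (SE, edgeR adjusted p = 0.174), or -0.077 with length offsets (edgeR adjusted p = 0.344). Tet1 was at 43.8 to 49.0 CPM and at 40.4 to 44.9 CPM, with overlap, and its log2 fold change was -0.13 ± 0.06 (edgeR adjusted p = 0.271), or -0.045 with length offsets (edgeR adjusted p = 0.702). The genotypes did not overlap for 3 of the 9 genes, Dnmt1, Dnmt3a and Tet3, against 23.4% of all genes tested. Tet3 was at 135 to 137 CPM in Chd8+/+ and at 127 to 133 CPM in Chd8+/-, a log2 fold change of -0.05 ± 0.03 (edgeR adjusted p = 0.494), which turned to 0.024 with length offsets (edgeR adjusted p = 0.749). Dnmt3b went the other way, with a log2 fold change of 0.31 ± 0.14 and overlapping genotypes (edgeR adjusted p = 0.287), and 0.20 without replicate 2 of P5 Chd8+/+. The remaining values were -0.06 ± 0.08 for Tet2, 0.06 ± 0.09 for Uhrf1, 0.01 ± 0.05 for Mbd1 and -0.02 ± 0.06 for Mbd2.

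**Figure D4:**
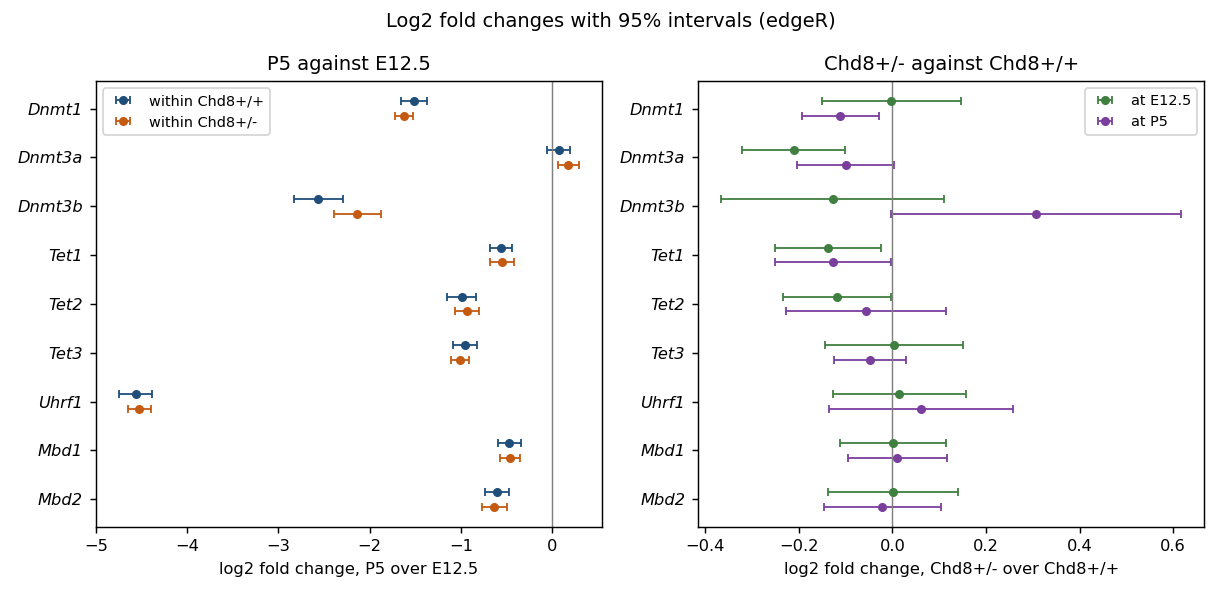
Log2 fold changes of the 9 genes with 95% intervals from edgeR, on the left for P5 over E12.5 within each genotype and on the right for Chd8+/- over Chd8+/+ at each stage. The x axes differ in scale: the stage effects reach -4.57, and the genotype effects lie between -0.21 and 0.31.

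A test of whether the genotype effect differed between the stages called none of the 9 genes and 0 of 19676 genes (0.0%) with edgeR. DESeq2 called 8 genes (0.0245%), none of them among the 9. At an unadjusted edgeR p under 0.05, which 1972 of the 19676 genes had, Dnmt3b stood alone among the 9, with a difference of 0.42 ± 0.18 (SE) on the log2 scale (edgeR adjusted p = 0.472). The corresponding difference for Dnmt1 was -0.13 ± 0.08 (edgeR adjusted p = 0.625), and it ran from -0.19 to -0.057 when single libraries were left out, the latter without replicate 2 of E12.5 Chd8+/+. Because Dnmt3a was lower in Chd8+/- libraries at both stages, the genotype effect averaged over the stages was also fitted, a comparison chosen after these values were seen. edgeR called 6 of 19676 genes (0.0305%) and none of the 9, of which 2 had an unadjusted p under 0.05, as did 1969 of all genes. Dnmt3a had an averaged log2 fold change of -0.16 ± 0.04 (SE, edgeR adjusted p = 0.176) and Tet1 of -0.14 ± 0.04 (edgeR adjusted p = 0.249). DESeq2 called Dnmt3a in this comparison, at the same fold change of -0.16, among 108 of the 15577 genes that passed its filter (0.693%). The comparison was prompted by the Dnmt3a values themselves, so this call restates them and is not independent evidence. With the same length offsets, the edgeR fold change of Dnmt3a was -0.12 (adjusted p = 0.330).

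Markers of other cells that could move with genotype were summed over each list, and none of the markers named next was at 0 in any group. The 5 endothelial markers summed to between 211 and 213 CPM in E12.5 Chd8+/+ libraries and to between 186 and 197 CPM in E12.5 Chd8+/- libraries. At P5 they summed to between 187 and 213 CPM and between 168 and 187 CPM. The 4 choroid plexus markers summed to between 432 and 561 CPM in P5 Chd8+/+ and between 316 and 373 CPM in P5 Chd8+/-, and the 5 markers of striatal medium spiny neurons to between 231 and 252 CPM and between 165 and 210 CPM. The 6 markers of GABAergic interneurons summed to between 572 and 597 CPM in P5 Chd8+/+ and between 474 and 553 CPM in P5 Chd8+/-. All of these were lower in Chd8+/-, without overlap, as were the P5 sums of excitatory neuron and intermediate progenitor markers and the E12.5 sum of microglial markers. The excitatory neuron sums lay close together, at no less than 3443 CPM in P5 Chd8+/+ and at most 3440 CPM in P5 Chd8+/-. The median log2 fold change of those 8 markers between genotypes at P5 was 0.01, so their sum does not describe them all. Genotypes overlapped in the E12.5 sums of choroid plexus, striatal and interneuron markers. edgeR called none of the 65 marker genes it tested at either stage, with 4 at E12.5 and 26 at P5 having an unadjusted p under 0.05, against 5.15% and 17.8% of all genes. DESeq2 called none at E12.5 and 12 of 61 at P5, against 5.22% of all genes, and all 12 were lower in Chd8+/-. They were 3 endothelial, 3 choroid plexus, 3 striatal and 2 excitatory neuron markers and 1 interneuron marker. Their part in the genotype values of the 9 genes was not tested.

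The other genes of the pathway were counted in lists. The stage effect of each list in Chd8+/+ libraries is given beside that in Chd8+/-, in edgeR calls at an adjusted p under 0.05. Over all genes tested, 42.3% were called lower and 41.7% higher at P5 in Chd8+/+, and 41.5% and 41.7% in Chd8+/-. These shares stand beside every count of stage calls in the lists and markers that follow. Of the 9 tested partners of maintenance methylation, 7 were called lower and none higher at P5 in Chd8+/+ (median log2 fold change -1.42). Cdca7, which with Hells forms a nucleosome remodeler needed for methylation of heterochromatin, fell from 170.3 to 13.5 CPM on average (log2 fold change -3.66 ± 0.05, SE, edgeR adjusted p = 2.45e-14). Hells fell from 166 to 8.24 CPM (-4.33 ± 0.06, edgeR adjusted p = 4.02e-14). Lig1, the ligase of the replicating lagging strand, fell from 196 to 26.1 CPM (-2.90 ± 0.04, edgeR adjusted p = 7.64e-14). In Chd8+/-, 7 were called lower and 2 higher, and the median was -1.44. Dnmt3l and Dppa3, known from germ cells and early embryos, did not pass the filter on low counts.

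All 18 genes of S phase and mitosis were called lower at P5 in both genotypes, with medians of -4.03 in Chd8+/+ and -4.06 in Chd8+/-. Their log2 fold changes in Chd8+/+ ran from -4.87 to -2.98, and the Uhrf1 value of -4.57 lay inside that range, whereas those of Dnmt1 and Dnmt3b lay above it. Bub1, a mitotic checkpoint kinase, fell from 144 to 4.91 CPM, and the cyclins Ccna2 and Ccnb1 fell from 294 to 16.5 and from 236 to 9.97 CPM. The 8 markers of neural progenitors summed to between 2657 and 2849.9 CPM in E12.5 Chd8+/+ libraries and to between 619 and 762 CPM at P5, with 7 called lower and 1 called higher. The 3 markers of intermediate progenitors summed to between 281 and 294 CPM and to between 12.4 and 13.3 CPM in the same groups, and all 3 were called lower. The summed level of the 8 excitatory neuron markers was higher at P5, at 3443 to 3592 CPM against 1569 to 1781 CPM at E12.5, with 6 called higher and 1 lower. That of the 5 astrocyte markers was 973 to 1050.4 CPM at P5 against 241 to 248.5 CPM at E12.5, with 4 called higher and none lower. None of these markers was at 0 in any group. Their part in the stage effect on the 9 genes was not tested.

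Of 10 other genes of the methyl-CpG binding domain and zinc finger reader families, not all of whose proteins bind methylated CG (mammalian Mbd3, Mbd5 and Mbd6 are known not to do so selectively), 7 were called lower and 3 higher at P5 in Chd8+/+ (median -0.81), and 6 lower and 3 higher in Chd8+/- (median -0.73). Zbtb4, a zinc finger protein that binds methylated CG, rose from 12.7 to 79.0 CPM (log2 fold change 2.64 ± 0.06, SE, edgeR adjusted p = 1.52e-12). Zbtb33, known as Kaiso, fell from 89.3 to 34.0 CPM (-1.39 ± 0.06), and the histone methyltransferase Setdb1 fell from 172 to 96.2 CPM (-0.84 ± 0.04). Of 13 corepressor genes that work with the readers, 10 were called lower and 3 higher in both genotypes, with medians of -0.86 in Chd8+/+ and -0.88 in Chd8+/-. The deacetylase Hdac1 fell from 160.3 to 36.6 CPM (-2.13 ± 0.04) and the NuRD subunit Mta2 from 226 to 89.1 CPM (-1.34 ± 0.04). Chd5, a neuronal remodeler of the NuRD complex, rose from 37.0 to 389 CPM (3.39 ± 0.10). Over all 8 lists edgeR called no gene between the genotypes at either stage. DESeq2 called none at E12.5 and 2 of 81 at P5, against 5.22% of all genes at P5. These were Smug1, described below, and the NuRD remodeler Chd3 (-0.14, DESeq2 adjusted p = 0.00491). At an unadjusted edgeR p under 0.05, which 5.15% of all genes had at E12.5 and 17.8% at P5, the corepressor list held 2 of 13 genes at E12.5 and 6 of 13 at P5. The other 7 lists, with 4 to 18 genes tested, held at most 2 each at either stage.

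Of 10 partners of the Tet enzymes and readers of unmethylated CG, 7 were called lower and 1 higher in Chd8+/+ (median -0.55), and 6 lower and 1 higher in Chd8+/- (median -0.52). Idh2, a mitochondrial enzyme that makes the 2-oxoglutarate that Tet enzymes need, fell from 184 to 43.9 CPM (log2 fold change -2.06 ± 0.04, SE). Idh3a, a subunit of the NAD-linked isocitrate dehydrogenase, rose from 79.2 to 172 CPM (1.123 ± 0.04), and Kdm2a, a demethylase with a CXXC domain, fell from 169.9 to 106 CPM (-0.69 ± 0.05). Of 11 genes of the methyl donor cycle, 9 were called lower and 2 higher in both genotypes, with medians of -0.97 and -0.95. Shmt1, which feeds folate with serine carbon, fell from 53.8 to 5.31 CPM (-3.34 ± 0.07). Ahcy, which removes S-adenosylhomocysteine, fell from 90.9 to 29.2 CPM (-1.64 ± 0.06), and Shmt2 fell from 108 to 38.0 CPM (-1.50 ± 0.06).

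Of 14 genes of base excision and active demethylation, 11 were called lower and 2 higher in Chd8+/+ (median -1.41), and 9 lower and 2 higher in Chd8+/- (median -1.37). Gadd45g, a stress-inducible protein linked to active demethylation and also counted among the intermediate progenitor markers, fell from 30.9 to 7.04 CPM (log2 fold change -2.14 ± 0.06, SE). Xrcc1, a scaffold of single-strand break repair, fell from 96.7 to 32.2 CPM (-1.59 ± 0.05), and the glycosylase Neil3 fell from 39.3 to 3.58 CPM (-3.45 ± 0.12). In the genotype comparison averaged over both stages, edgeR called Smug1 alone of 96 list genes tested, against 0.0305% of all genes. DESeq2 called 5 of 90 there, against 0.693% of all genes. Smug1 and Mtrr were higher and Chd3, Mta3 and Ogt lower in Chd8+/-. Smug1 encodes a DNA glycosylase that removes uracil and 5-hydroxymethyluracil. It was at 27.6, 28.6 and 27.8 CPM in E12.5 Chd8+/+ libraries and at 32.7, 34.0 and 33.3 CPM in E12.5 Chd8+/- libraries. At P5 it was at 25.8, 25.8 and 25.2 CPM in Chd8+/+ and at 31.8, 29.6 and 30.3 CPM in Chd8+/-. Every Chd8+/- library lay above every Chd8+/+ library of its stage.

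The log2 fold change of Smug1 was 0.25 ± 0.05 (SE) at E12.5 (edgeR adjusted p = 0.924), 0.27 ± 0.05 at P5 (edgeR adjusted p = 0.0950) and 0.26 ± 0.03 averaged over both stages, or 19.4% higher (edgeR adjusted p = 0.0198). DESeq2 also called it at P5 (adjusted p = 0.00423) and averaged over both stages (adjusted p = 6.07e-07). The averaged edgeR call was lost in 7 of the 12 fits that left out a library, at adjusted p between 0.0253 and 0.0962 over all 12, while the fold change stayed between 0.24 and 0.28. The libraries whose omission ended the call were replicates 1 and 3 of E12.5 Chd8+/+, replicate 3 of E12.5 Chd8+/-, all 3 P5 Chd8+/+ libraries and replicate 3 of P5 Chd8+/-. The exons of Smug1 share no base with another annotated gene.

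A last list held 18 germline genes that are known to be silenced by methylation of their promoters. They summed to between 6.53 and 7.29 CPM in E12.5 Chd8+/+ libraries, between 7.26 and 8.12 CPM in E12.5 Chd8+/-, between 22.1 and 25.7 CPM in P5 Chd8+/+ and between 24.3 and 28.8 CPM in P5 Chd8+/-. In P5 Chd8+/+ 14 of the 18 genes had a mean under 1 CPM. Brdt, a bromodomain protein of the testis, made up most of the P5 sum, rising from 1.60 to 13.3 CPM in Chd8+/+ (log2 fold change 3.06 ± 0.11, SE, edgeR adjusted p = 7.02e-11). Tdrd1, a tudor domain protein of germ cells, rose from 0.766 to 3.95 CPM (2.36 ± 0.20). Only 9 of the 18 passed the filter in this comparison, and genes that passed through their P5 level alone had to differ. When the E12.5 libraries were filtered by themselves, 4 passed, Brdt, Ddx4, Tdrd1 and Tdrd9. Of these, Brdt, Ddx4 and Tdrd1 were called higher at P5 in Chd8+/+ and Tdrd9 was called lower, while in Chd8+/- Ddx4 was not called. The other 5 did not pass at E12.5, among them Dazl, a germ cell RNA binding protein, at 0.126 CPM at E12.5 and 1.82 CPM at P5, and nothing is read from their calls. Between the genotypes, neither edgeR nor DESeq2 called a germline gene at either stage. DESeq2 gave an adjusted p to 15 of the 18 at E12.5 and to 2 at P5, and edgeR gave an unadjusted p under 0.05 to 0 of 4 at E12.5 and 2 of 10 at P5.

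**Figure D5:**
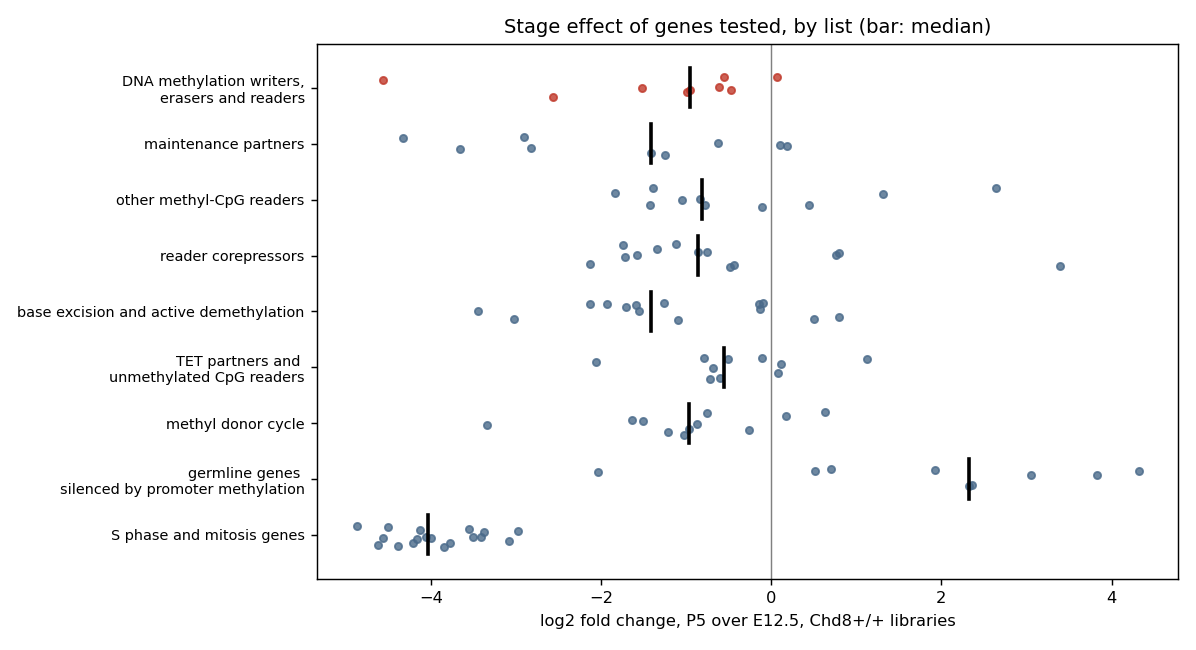
Log2 fold change of P5 over E12.5 in Chd8+/+ libraries for each gene tested, grouped by list, with a black bar at the list's median and vertical scatter added for legibility. The S phase and mitosis genes lie between -4.87 and -2.98, and Uhrf1 at -4.57 is the only one of the 9 genes, at the top, within that range.

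The genes whose pattern over the 12 libraries was most like that of each member were found by Pearson's r of log2(CPM + 1), among genes with a mean of at least 10 CPM. These values describe 12 libraries of 2 stages, and since the stages stand far apart, many genes share a high r. Uhrf1 was most like Fignl1, Exo1 and Gtse1 (r = 0.9997, 0.9997 and 0.9996), and 4272 of the 10822 genes compared had an r over 0.95 with it. Dnmt1 was most like Chd4, Ubap2l and Eif4ebp2 (r = 0.9996, 0.9993 and 0.9992), and Tet3 was most like Arid1a, Zc3h4 and Ddi2 (r = 0.9994, 0.9988 and 0.9986). Dnmt3b was most like Cdc25b, Reep4 and Selenon (r = 0.998, 0.998 and 0.996). Tet1 was most like Mmp14, Ncor1 and Immt (r = 0.993, 0.992 and 0.987), and Tet2 was most like Nfat5, Wrn and Ino80d (r = 0.995, 0.994 and 0.993). Mbd1 was most like Cntrob, Mat2a and Gpc2 (r = 0.998 for each), and Mbd2 was most like Notch3, Sox13 and Phactr2 (r = 0.998, 0.997 and 0.997). No gene had an r over 0.95 with Dnmt3a, and the highest were Sept8 at 0.936, Nipsnap2 at 0.872 and Eng at 0.866. Since a high r here rests largely on the stage difference, this restates the small stage effect of Dnmt3a. Other genes with little change between the stages were not compared in this way.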

How the data were processed

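mRNA from microdissected neocortex was sequenced as paired-end dUTP libraries, 3 for each of 4 groups of genotype and stage. The submitters' processing notes name Trim Galore 0.4.1, TopHat2 2.1.0, featureCounts 1.5.0 and the build GRCm38.p4. The values deposited by the authors are raw counts per gene and sequencing run, without normalization, filter or pooling. The counting command in the P5 file sets no strand, and that for E12.5 is not given in the sources used here, so overlapping genes on opposite strands may share reads.

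The 2 runs of each library were summed, since they differed less (chi-squared per degree of freedom at most 1.51) than libraries of a group (at least 6.58). Comparisons used edgeR 4.0.16 under R 4.3.3 with TMM, filterByExpr and the quasi-likelihood test, with p-values adjusted by Benjamini-Hochberg over all genes tested and a threshold of 0.05. Standard errors and 95% intervals come from that fit. Each comparison was fitted on its own 6 libraries, and the interaction and the averaged genotype effect on all 12. Shares within families were compared with exact permutation tests. The procedure was tested on simulated data.

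Alternatives were DESeq2 1.42.0, other scalings, all genes with at least 1 count, length offsets (loess, span 0.5), a single model of all 12 libraries, a block for replicate number, and leaving out every library in turn. The members and lists were chosen with earlier results of these data known. Named genes are the 9 members, Chd8, for each list the 3 genes with the smallest p for stage in Chd8+/+ and any called between genotypes, and for each member the 3 most alike genes. Marker lists covered neural and intermediate progenitors, excitatory neurons, cortex identity, interneurons, astrocytes, oligodendrocyte precursors, microglia, endothelium, erythrocytes, choroid plexus, meninges and striatal neurons. Some items are not reported here. Figures were drawn with matplotlib 3.10.9 under Python 3.11.15.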

Additional observations from a re-analysis of the deposited data

How the results depend on the processing

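Under all 13 alternatives to each stage comparison, the calls and directions of the 9 genes stayed as reported. Between genotypes at each stage, no alternative called any of the 9. The number of genes called moved: at E12.5 from 1 to 3 with DESeq2, 13 with all genes of at least 1 count, 2 with all 12 libraries in 1 model, and 0 to 2 without single libraries (0 without replicate 3 of Chd8+/+ or replicate 1 or 3 of Chd8+/-). At P5 it moved from 1 to 651, 995 and 4 under the same 3 settings and to between 1 and 327 without single libraries, the 327 without replicate 2 of P5 Chd8+/-, 5 without replicate 3 and 2 without replicate 1 of that group. For the interaction it moved from 0 to 8 with DESeq2, 17 with all genes of at least 1 count and 0 to 2 without single libraries. For the averaged genotype effect it moved from 6 to 108 with DESeq2 (1 of the 9 called, Dnmt3a at -0.16), 37 with all genes of at least 1 count, and 1 to 8 without single libraries (5 and 8 without replicate 2 of E12.5 or P5 Chd8+/-, at most 3 without any other). The causes were not tested.

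Replicate numbers did not pair the samples: same-numbered libraries correlated between -0.156 and 0.191 in their deviations from group means. Between the P5 genotypes each library correlated best with its own number (0.187, 0.078 and 0.038), a hint from the data and not from the design, and at E12.5 none did. With the replicate block, genes called between genotypes numbered 0 at E12.5, 4 at P5 and 1 averaged over both stages, none of the 9 among them, and Smug1 was not called (0.26, edgeR adjusted p = 0.333). With stage permuted within 6 numbered pairs the shares that passed had an exact permutation p of 0.03125.

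Genotype fold changes near 0 changed sign without changing a call. At E12.5 Dnmt1 was 0.0020 with upper quartile scaling and 0.00040 with the replicate block, Tet3, Mbd1 and Mbd2 were -0.0041, -0.0042 and -0.0053 with all genes of at least 1 count, Mbd1 and Mbd2 were -0.0014 and -0.00076 with length offsets, and Mbd2 was -0.00011 with the block. At P5, length offsets gave 0.033 for Tet2, 0.024 for Tet3 and -0.0067 for Mbd1, and all 12 libraries gave -0.0056 for Mbd1. Without single libraries, the E12.5 ranges were -0.052 to 0.066 for Dnmt1, -0.015 to 0.020 for Mbd1, -0.047 to 0.029 for Mbd2, -0.059 to 0.064 for Tet3 and -0.024 to 0.076 for Uhrf1, and the P5 ranges were -0.0057 to 0.034 for Mbd1, -0.048 to 0.0083 for Mbd2, -0.13 to 0.038 for Tet2 and -0.016 to 0.15 for Uhrf1. With Chd8+/+ libraries alone, where 3 against 3 cannot go below an exact p of 0.10, the shares changed by -21.1 points for Dnmt1, 23.5 for Dnmt3a, -2.40 for Dnmt3b, 3.91 for Tet1, -1.02 for Tet2 and -2.89 for Tet3. Dnmt3b at P5 rests on 95 to 147 reads per library, the lowest depth among the 9.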

Other observations

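The 5 microglial markers summed to between 27.0 and 27.6 CPM in E12.5 Chd8+/+ libraries and to between 84.6 and 114 CPM in P5 Chd8+/+ libraries, and all 5 were called higher at P5 in both genotypes. The 5 markers of oligodendrocyte precursors rose from between 76.5 and 87.1 CPM to between 368 and 397 CPM, with 4 of 5 called higher in Chd8+/+ and 5 of 5 in Chd8+/-. The 5 erythrocyte markers went from between 431 and 484 CPM to between 113 and 122 CPM, with 4 called lower and 1 higher in Chd8+/+, and the 4 markers of meninges from between 476 and 601 CPM to between 169 and 192 CPM, with 3 called lower and 1 higher. The 6 markers of GABAergic interneurons summed to between 552 and 574 CPM and to between 572 and 597 CPM, with 3 called higher and 3 lower in Chd8+/+. Of all genes tested, 42.3% were called lower and 41.7% higher at P5 in Chd8+/+, and 41.5% and 41.7% in Chd8+/-.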
